A study of Oryza sativa with 6 samples.

Results

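Ferulic acid (FA) is a phenolic acid known as an allelochemical in soils, which plants also build into cell walls and suberin. A set of 75 rice loci, of 29690 on the array, was held by 86 of 41908 locus probes. These loci had a higher signal in FA-treated roots than in water-treated roots after 24 h of exposure. After the short exposure their mean log2 ratio lay between -0.5 and 0.5. The members were chosen by their measured values: an FA signal of at least 100 on all 3 long-exposure arrays, a mean log2 (FA/water) of at least 1 over those arrays with each above 0.5, and a mean between -0.5 and 0.5 over the 3 short-exposure arrays. Their ratios in either exposure, and the gap between the exposures, are therefore a description of the choice, and no test of them is given.

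The arrays held RNA from root tips of 6-day-old seedlings of cultivar TN-67. Each of the 6 two-colour arrays compared seedlings given 50 ppm FA (red dye, Cy5) with seedlings given water for the same time (green dye, Cy3). Short exposure was RNA pooled from 1 and 3 h, long exposure was 24 h, and each had 3 biological replicates. The dyes were never swapped, so a ratio is open to dye bias. Slide and scan date were read from the barcodes and dates in the file headers. The 3 long arrays shared a slide and a scan date, and short replicates 1 and 2 shared another of each. Short replicate 3 had its own, so slide and exposure cannot be told apart. On the 6 arrays 68.3 to 75.6% of probes were well above background in the water channel and 72.9 to 77.3% in the FA channel, and no spot was saturated. The 6 loci on the root marker list had a summed processed signal of 86031 to 248308 per array and channel, with 1 locus, Os02g0112100, at 48.9 or less throughout. The 6 green-shoot loci summed to 2316 to 3893, with 1 locus, Os03g0592500, at 1882 or more in every array and channel.

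Roots facing stress commonly reinforce their outer layers with suberin, lignin and waxes. Suberin is a polyester of very-long-chain fatty acids and phenolics that includes ferulate. Its acyl chains are elongated by ketoacyl-CoA synthases, oxidised by cytochrome P450 enzymes of the CYP86 family and exported by ABC transporters of the G subfamily, while laccases and peroxidases polymerise the phenolic part of the wall. The sources used here described 28 of the 75 members, and members without a description are given by locus number alone.

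The mean long ratio of the members ran from 1.00 to 4.05 on the log2 scale with a median of 1.48, where the median over all 18802 loci tested was -0.03. Their mean short ratio ran from -0.42 to 0.49 with a median of 0.25, where the median over the same 18802 loci was -0.10. Within the limits set by the rule, the members' median thus lay above that of all loci after short exposure too, which is a description and not a test. The same long-exposure limits, with any short ratio, were met by 288 of 17226 loci with the FA signal. All 75 members were also called higher by limma in the long-exposure fit (adjusted p under 0.1 and at least a 2-fold mean change), beside 1.88% of all loci tested, which the choice of members fixes. At the brightest probe of each locus, members made up 72 of the 353 loci called higher after long exposure. In the plot of long against short ratios the members fill the space above the unchanged majority and to the left of loci that were higher in both exposures.

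**Figure D1:**
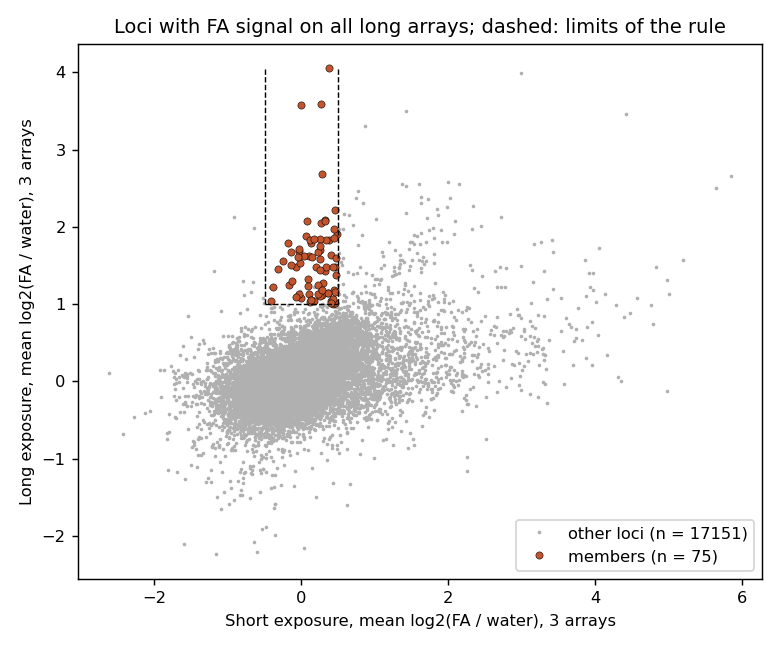
Mean log2 (FA/water) of the 3 long arrays (y axis) against that of the 3 short arrays (x axis) for each locus with an FA signal of at least 100 on all long arrays. The 75 members (orange) lie inside the dashed limits of the rule, which drew them from 17226 such loci.

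The mean short ratio lay between -0.5 and 0.5 by choice, but single short arrays did not all do so. Every short array lay within 0.5 of zero at 24 of 75 members. At 45 members at least 1 short array was above 0.5, and at 6 members at least 1 was above 1. Short replicate 2 was above 0.5 at 36 members, against 8 for replicate 1 and 6 for replicate 3. All 3 long ratios lay above all 3 short ratios at 68 of 75 members, beside 30.9% of the 19781 loci tested for long minus short, a count that the choice of members largely fixes. The 7 members where they overlapped were Os03g0245700, Os03g0664400, Os05g0120000, Os05g0245300, Os06g0271000, Os10g0532200 and Os11g0499600.

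**Figure D2:**
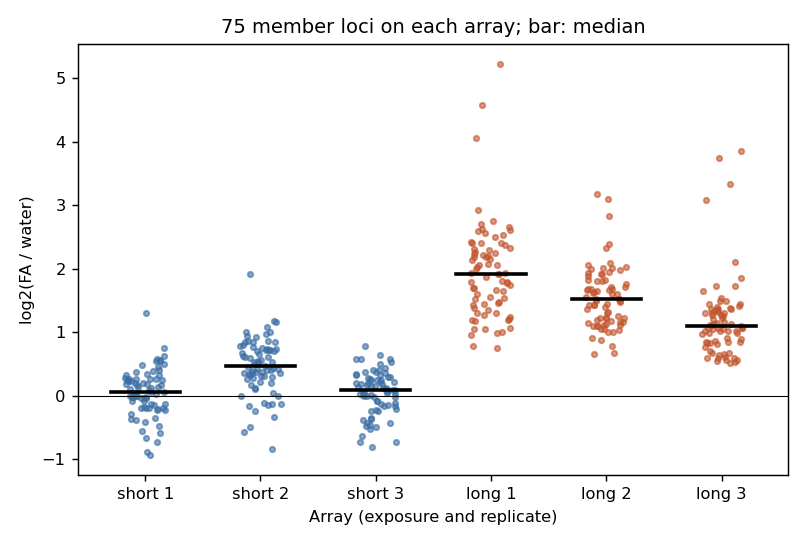
Log2 (FA/water) of the 75 members (points) on each of the 6 arrays, with the median as a bar. The median was 1.925, 1.523 and 1.096 on long replicates 1, 2 and 3, and 0.06, 0.46 and 0.09 on short replicates 1, 2 and 3.

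Among the long arrays, replicate 1 gave the highest ratio at 60 of 75 members and replicate 3 the lowest at 58. Of the other 281 loci called higher after long exposure, replicate 1 was highest at 170 and replicate 3 lowest at 144. The 11 members that were highest on long replicate 3 included the pathogenesis-related protein 1 gene Os07g0129300, the peroxidase genes Os03g0235000 and Os06g0695300 and the small heat shock protein gene Os04g0445100.

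For 7 members the short exposure was not measured above background at all, in either channel on any short array: Os01g0512700, Os03g0347500, Os04g0560100, Os08g0352100, Os10g0469600, Os10g0481500 and Os10g0532200. Their short ratios come from signals too dim to show a change. These include the 3 members with the largest long ratios. Os08g0352100, described as a conserved hypothetical protein, had long ratios of 5.23, 3.18 and 3.75, and Os10g0481500, described likewise, had 4.57, 3.10 and 3.09. The water channel was not well above background on any long array for either locus, so a fold change there can only be bounded. Taken against the lowest water signal that was well above background on each array, or the probe's own signal where higher, the FA signal was at least 11.2-fold higher than water for Os08g0352100 on channel levels after loess and Aquantile scaling. The same calculation gave 12.3-fold for Os10g0481500, which is above the 12.03-fold of its mean processed ratio and so is not a bound on both scales.

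The third member of that kind, Os03g0347500, encodes an MtN3-like protein. MtN3 is the founding name of the SWEET family of sugar transporters. Its long ratios were 4.06, 2.83 and 3.86, with processed FA signals of 393, 377 and 476 against 23.5, 53.1 and 32.7 in water, which was well above background on 1 of the 3 arrays. On the short arrays both channels stayed under 10, and the scanner software listed each ratio as 0. The water channel was also dim on some long arrays for Os01g0700500, Os01g0802900, Os07g0129300, Os10g0469600 and Os11g0151100.

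**Figure D3:**
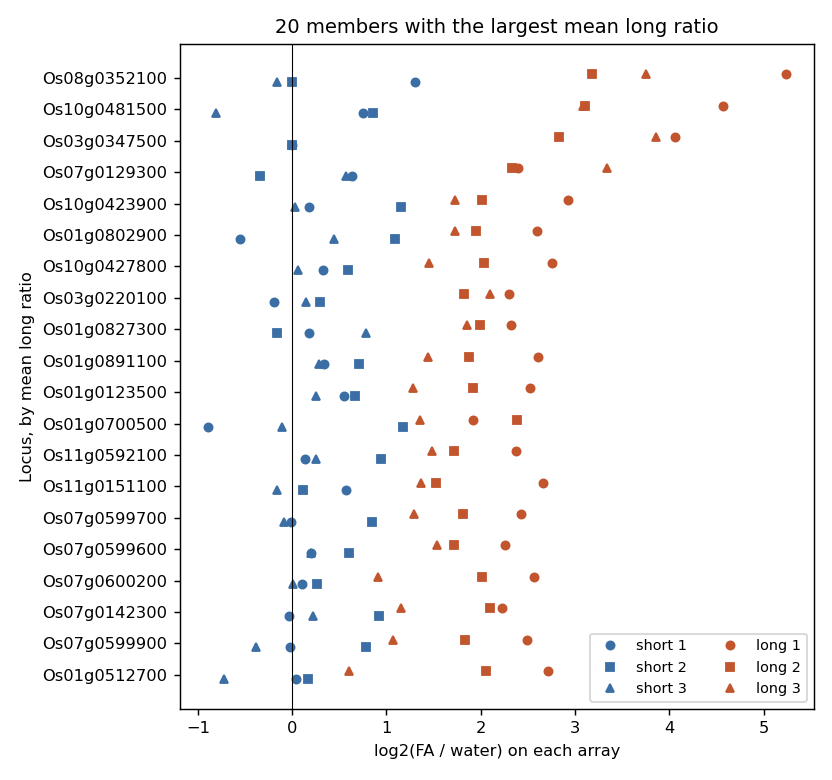
Log2 (FA/water) on each array for the 20 members with the largest mean long ratio; symbols mark the replicate and colours the exposure. Every long value of these loci lies at or above 0.60, and the widest short spread is at Os01g0700500, from -0.89 to 1.17.

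Several described members act on very-long-chain lipids. Os03g0220100 encodes a very-long-chain fatty acid condensing enzyme annotated as CUT1, an enzyme known from Arabidopsis for elongating the acyl chains of surface waxes. Its brightest probe gave long ratios of 2.298, 1.826 and 2.101 (mean 2.07 ± 0.24, SD, n = 3, or 4.21-fold) and short ratios of -0.19, 0.29 and 0.15. The processed signal on the long arrays was 10002, 7531 and 3484 with FA and 2034, 2124 and 812 with water. All 3 probes of this locus were members, and their mean long ratios ran from 1.64 to 2.08.

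The beta-ketoacyl-CoA synthase gene Os11g0591200, of the same step of chain elongation, had long ratios of 1.80, 1.66 and 1.33 and short ratios of 0.26, 0.75 and 0.40. Os10g0486100, annotated as a CYP86B1-like cytochrome P450, had long ratios of 1.75, 1.43 and 1.14. CYP86B1 of Arabidopsis hydroxylates very-long-chain fatty acids for suberin. Os10g0486100 stood at -0.19, 0.71 and 0.26 on the short arrays, again highest on replicate 2. Os04g0560100, placed beside them by its locus number and without a description in the sources used, had long ratios of 2.08, 1.65 and 0.87 and was 1 of the 7 members too dim to measure on the short arrays. Its other probe gave a long mean of 1.31 and a short mean of -0.68.

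Os03g0281900, annotated as an ABC transporter, is the rice RCN1 (OsABCG5) gene, needed for suberin in the outer root layers of rice. Its long ratios were 1.92, 1.67 and 1.27 (mean 1.62 ± 0.33, SD, n = 3) and its short ratios -0.37, 0.72 and -0.02. The water channel of this probe read 1042, 1027 and 816 on the long arrays and 275, 137 and 231 on the short arrays.

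The lipid barrier list, drawn up with earlier results of these arrays known, held 8 loci, of which 4 were chosen by locus number and 4 by words in their descriptions. On it, 6 of 8 tested loci were called higher after long exposure and 0 lower, beside 1.88% and 0.606% of all loci tested, and 5 of the 6 were members. Its median was 1.37 in the long exposure, where all loci had -0.03. After short exposure 0 of the 6 tested loci were called in either direction, where 7.03% of all loci were called higher and 2.57% lower. Most of those 6 were members, whose short mean the rule kept below the 2-fold limit, so this count is largely fixed by the choice. The 1 called locus outside the members was Os02g0666500, with no description, at 1.42, 1.01 and 0.96 on the long arrays (mean 1.13, limma adjusted p = 0.00153). It fell outside the members on signal, with a lowest FA signal of 90.6. Os01g0854800 had a mean of 0.64 and Os05g0121600, annotated as GLOSSY15, a mean of 0.15, and neither was called. The study itself listed 4 of the 8 loci as regulated on these same arrays, so this count is not independent evidence. The word search covered only loci described in the study's own tables, so the list could miss lipid barrier loci that did not change. The 5 members among the called loci had been chosen for a high long ratio, so the long-exposure count is largely fixed too.

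ABC transporters and the major facilitator superfamily supplied 4 members, RCN1 among them. Os05g0384600, another ABC transporter, had long ratios of 1.78, 1.61 and 1.07 at its brightest probe, and 2 of its 3 probes were members. Os05g0120000, also an ABC transporter, had 1.61, 1.01 and 0.60, and its short replicate 2, at 0.80, lay above its lowest long value. Os09g0371300, of the major facilitator superfamily of solute carriers, had 2.16, 1.50 and 0.89 against short ratios of -0.20, -0.49 and 0.28. Of 69 ABC transporter loci tested after long exposure, 5 were called higher and 0 lower, beside 1.88% and 0.606% of all loci. The 3 ABC transporter members were among these 5 and had been chosen for a high long ratio, so the rule partly fixes this count. After short exposure 18 of 71 were called higher and 1 lower, beside 7.03% and 2.57% of all loci. For the major facilitator superfamily the counts were 2 higher and 1 lower of 94 after long exposure, which is near the share of all loci, and 11 higher and 3 lower of 98 after short exposure. These family counts were added after the values had been seen.

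Cell wall and oxidase genes made up a further group. The laccase gene Os01g0827300 had long ratios of 2.33, 1.99 and 1.85 (mean 2.06 ± 0.24, SD, n = 3) and short ratios of 0.18, -0.16 and 0.78. Laccases are copper enzymes that oxidise monolignols. The polygalacturonase gene Os01g0891100, whose product cuts pectin, had 2.61, 1.88 and 1.44. The alpha-expansin gene OsEXPA25 (Os10g0439200), of a family that loosens walls, had 2.40, 1.63 and 1.21, with short values between 0.10 and 0.43. The peroxidase genes had smaller ratios, 1.27, 1.22 and 1.65 at Os03g0235000 and 1.05, 1.06 and 1.33 at Os06g0695300. Of 36 expansin loci tested after long exposure 2 were called higher, and of 20 polygalacturonase loci 1, with 0 lower in both families, beside 1.88% higher and 0.606% lower of all loci. The 1 polygalacturonase locus was the member Os01g0891100, and 1 of the 2 expansin loci was the member OsEXPA25. Both had been chosen for a high long ratio, so these long-exposure counts are partly fixed by the rule. After short exposure 3 of 39 expansin loci were called higher and 2 lower, and 1 of 20 polygalacturonase loci higher and 7 lower, beside 7.03% and 2.57% of all loci. The share of expansin loci called higher was near that of all loci.

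Defence and metal-binding proteins were also represented. Os07g0129300 encodes a pathogenesis-related protein 1, a secreted protein of plant defence, and had long ratios of 2.40, 2.33 and 3.34 and short ratios of 0.63, -0.34 and 0.57. Os11g0592100, a Barwin gene of the pathogenesis-related 4 type, had 2.37, 1.72 and 1.49, and both of its probes were members. The pathogenesis-related word list held 49 loci, of which 36 were ERF transcription factors that carry the term in their description. Of 34 tested after long exposure, 4 were called higher and 0 lower, beside 1.88% and 0.606% of all loci. Of 33 tested after short exposure 8 were called higher and 1 lower, beside 7.03% and 2.57% of all loci. The other 2 were the neighbouring Barwin gene Os11g0592000 (mean 2.56, adjusted p = 0.000567) and the chitinase gene Os01g0660200 (mean 2.53 ± 1.26, SD, n = 3, limma adjusted p = 0.00588). Both were also called higher after short exposure, at 1.38 and 1.43. The study listed 9 of the 49 loci as regulated on these arrays. This word search, too, covered only loci described in the study's own tables, and the members on the list had been chosen for a high long ratio.

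Metallothioneins are small cysteine-rich proteins that bind metals. The member Os12g0571000 had long ratios of 2.03, 1.44 and 1.38 and short ratios of -0.13, 0.44 and -0.44. The other 2 metallothionein loci of the list were called higher after long exposure too, at 2.31 for Os12g0568200 (adjusted p = 0.000567) and 2.18 for Os12g0570700 (adjusted p = 0.00122). They differed from the member in the short exposure, where Os12g0570700 was called higher at 1.43 (adjusted p = 0.00106) and Os12g0568200, at 0.84, stayed under the 2-fold limit. All 3 loci were among the regulated genes listed by the study, and the word search covered only loci described in the study's own tables. The list could therefore miss metallothionein loci that did not change, and its calls are not independent evidence. The photosynthesis word list held a single locus, Os09g0481200 of photosystem I, which was not a member and was called higher in both exposures at 1.56 and 1.64. With the median of its probes in place of the brightest, the long-exposure call was lost. This locus, too, was among the regulated genes listed by the study, and the list could miss photosynthesis loci that did not change.

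The remaining described members, named here after their values were seen, were the MATH domain gene Os10g0423900 (2.93, 2.02 and 1.73 on the long arrays), the class 3 lipase gene Os05g0153300 (1.70, 1.60 and 1.07), the germin-like gene Os08g0189100 (1.44, 1.32 and 1.07), the DUF538 gene Os10g0518000 (1.35, 1.25 and 1.14), the class IV small heat shock protein gene Os04g0445100 (1.20, 1.17 and 1.30) and several hypothetical proteins. Os04g0445100 had the tightest long values of the named members, with an SD of 0.07, and was below zero on all 3 short arrays, at -0.23, -0.57 and -0.35. The P450 gene Os01g0700500 had 1.91, 2.39 and 1.36 on the long arrays at its member probe.

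The rule did not use position, and 11 of the 75 members lay within 1000 locus numbers of another member, in 3 runs. The same count was not made for other loci, so whether 11 is more than usual was not tested. Locus numbers of this annotation rise along the chromosome, in steps of 100. The longest run, on chromosome 7, held Os07g0599500, Os07g0599600, Os07g0599700, Os07g0599900 and Os07g0600200. Their 9 probes had long means between 1.65 and 1.88 and the same order of arrays, with replicate 1 highest (2.26 to 2.65) and replicate 3 lowest (0.91 to 1.54). That order was found at 55 of all 75 members, so it is not particular to this run. Os07g0599600 is described only as a hypothetical protein, and the other 4 have no description in the sources used.

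Loci between and beside these members did not all share the pattern. Os07g0599300 and Os07g0599400 were called higher after long exposure, with long means of 1.01 and 1.13. Os07g0600100, which lies between members, had long ratios of 0.68, 0.72 and 0.99 and short ratios of 1.63, 1.80 and 1.99, and was called higher after short exposure (limma adjusted p = 8.75e-05). Os07g0600000 was at background on all arrays, and Os07g0599000 and Os07g0600400, at the ends, had long means of 0.06 and -0.05.

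**Figure D4:**
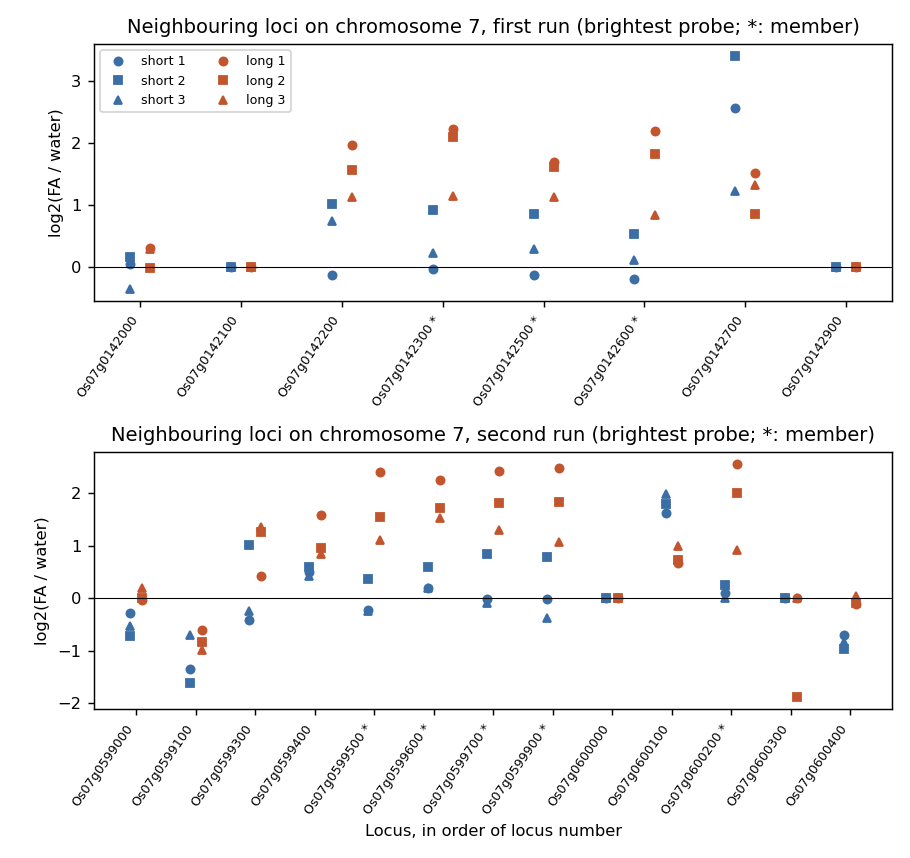
Log2 (FA/water) on each array for consecutive loci around the 2 runs of members on chromosome 7, at the brightest probe of each locus; stars mark members. Long values of the members stand at 0.83 or above, and Os07g0142700 (too dim to be tested) and Os07g0600100 show the opposite order, with short replicates 1 and 2 above every long value.

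The other run on chromosome 7 held Os07g0142300 (2.227, 2.097 and 1.150), Os07g0142500 (1.69, 1.61 and 1.12) and Os07g0142600 (2.19, 1.81 and 0.83). Os07g0142200, next to them, had 1.96, 1.56 and 1.13 on the long arrays but a short mean of 0.54, just past the limit. On chromosome 11 the members Os11g0591200, Os11g0592100 and Os11g0592900 were the first, a middle and the last of 14 loci with consecutive locus numbers on the array, with Os11g0592900 at 1.94, 1.48 and 1.02. Between them Os11g0592200 had short ratios of 2.67, 4.82 and 4.42 and long ratios of 2.51, 0.52 and 1.16. The array's probes were not checked for shared sequence among neighbours, so cross-hybridisation of related genes was not tested.

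A ratio combines the FA and the water signal, and the levels of each channel, scaled between arrays, differed among members. At 61 members both channels were well above background on all 6 arrays. The FA level was higher on the long than on the short arrays at 57 of these 61, with a median difference of 1.84 on the log2 scale, where 52.3% of all 18341 loci measured this way were higher and the median was 0.03. The rule asked for FA signal on the long arrays, so this count is part of the choice. The water level was higher too at 45 of 61, with a median difference of 0.50, where 54.2% of the same loci were higher and the median was 0.03. Age of the seedlings, time of sampling, slide and scan date differ together here and cannot be told apart.

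In Os03g0281900 the water level was higher on the long arrays by 2.13 and the FA level by 3.56. In Os03g0220100 the differences were 1.16 and 3.08, and in Os07g0599700 1.70 and 3.22. The class 3 lipase gene Os05g0153300 showed another composition. Its FA level differed by -0.03 between the exposures and its water level by -1.77, with processed water signals of 2055, 2537 and 2734 on the long arrays against 7123, 7017 and 9926 on the short arrays. The FA level was likewise not higher on the long arrays at Os08g0556300, Os03g0266300 and Os08g0127200. At the pathogenesis-related protein 1 gene Os07g0129300, whose water channel was dim on long replicate 1, the water level differed by -2.58 and the FA level by -0.25. For these 5 loci the positive long ratio went with a lower water signal and with no higher FA signal than on the short arrays.

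Short replicate 2 gave the highest short ratio at 52 of 75 members (69.3%) and at 195 of the 281 other loci called higher after long exposure (69.4%), a like share. In the water channel, among the 3 short arrays, the level was lowest on replicate 2 at 49 of the 61 members, against 29.1% of all loci measured this way. The FA level was highest on replicate 2 at 6 of 61, a count not made for all loci. Neither channel was counted for the 281 other loci. Relative to each locus's mean over the 6 arrays, the members' median water level was -0.78 on short replicate 2, -0.07 on replicate 1 and -0.21 on replicate 3, and between 0.26 and 0.39 on the long arrays. Over all loci these medians stayed between -0.05 and 0.04.

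**Figure D5:**
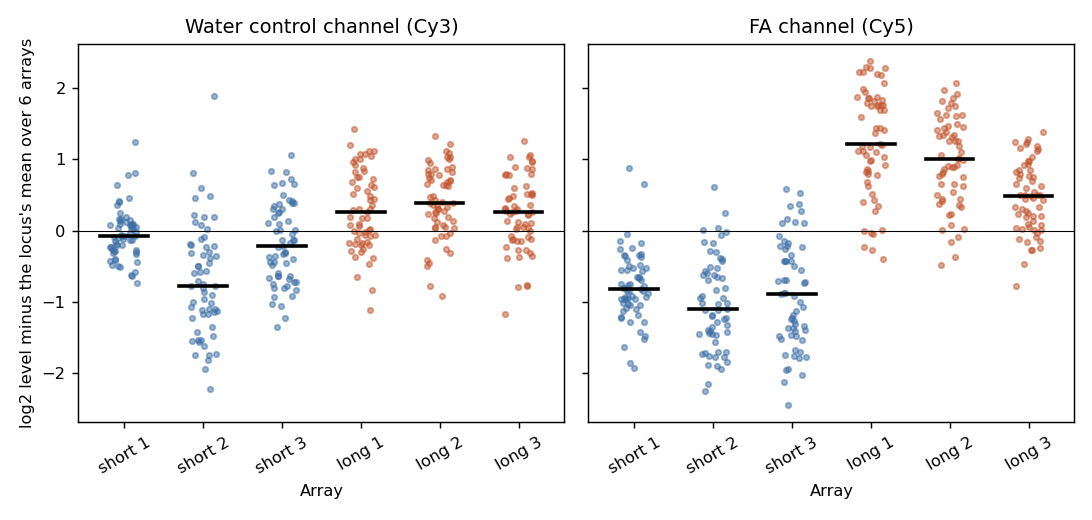
Scaled log2 level in the water channel (left) and the FA channel (right) of the 61 members measured above background throughout, on each array, relative to the locus's mean over the 6 arrays; bars are medians. Short replicate 2 has the lowest median in the water channel (-0.78), and the long arrays the highest in the FA channel (1.22, 1.01 and 0.48).

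The other probes of the member loci are by definition probes that failed the rule. Counts among them depend on the rule and are no independent check of it. The array carried more than 1 probe for 21 members, and at 9 of them more than 1 probe was a member. Of 27 probes that did not meet the rule, at 14 member loci, 16 had an FA signal of at least 100 on all long arrays. At 5 of these 16 the long mean was at least 1, and at 4 it was under 0.5. The 4 were at 3 loci. Os01g0700500, the P450 gene, had a second probe with a long mean of -0.43 and a mean signal of 261. Os04g0541700 had other probes at 0.15 and -0.54, and Os11g0499600 had a probe at 0.23 whose mean signal was 3365. At Os03g0266300 the other probes with the signal had long means from 0.52 to 0.95, and the brightest of all, at a mean signal of 16740, was the lowest. In Os08g0478000 and Os03g0245700 the other probes missed only the short limit, with short means from 0.50 to 0.69.

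Several loci lay close to the limits. Os03g0245700, Os08g0127200 and Os04g0411400 had long means of 1.00, 1.01 and 1.02, while Os01g0253800, Os01g0902700 and Os08g0298600 missed the limit of 1 at 0.995, 0.988 and 0.982. The lowest single long ratio was 0.51 at Os01g0734000, 0.53 at Os10g0469600 and 0.55 at Os05g0245300. Just outside were Os05g0590300 and Os02g0189200 at 0.49 and 0.48, and a second probe of the member Os03g0664400 at 0.31. At the upper short limit Os01g0123500, Os05g0384600 (another member probe) and Os11g0591200 lay inside at 0.489, 0.486 and 0.469. A second probe of Os08g0478000, Os03g0285300 and Os04g0687200 lay outside at 0.501, 0.502 and 0.508. At the lower short limit Os02g0575800, Os04g0445100 and Os05g0153300 were the members nearest to -0.5, at -0.42, -0.38 and -0.32, with Os03g0826800, Os01g0177400 and Os11g0521000 outside at -0.51, -0.64 and -0.66. The lowest FA signals inside were 105, 115 and 123 at Os10g0469600, Os10g0532200 and Os08g0352100. Outside were Os05g0280500, Os04g0109200 and Os02g0666500 at 97.0, 94.0 and 90.6.

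The other 47 members had no description, and 8 of them were among the 20 with the largest long ratios: Os10g0427800 (2.75, 2.04 and 1.45), Os01g0123500 (2.53, 1.92 and 1.28), Os11g0151100 (2.66, 1.52 and 1.36), Os07g0599700, Os07g0600200, Os07g0142300 and Os07g0599900, with Os01g0512700 (2.71, 2.06 and 0.60) the last. By chromosome the members ranged from 2 on chromosomes 2 and 9 to 10 on chromosomes 1 and 7, out of 3355, 1635, 4169 and 2340 loci on the array.

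For the difference between the exposures, long minus short, 2.87% of all loci tested were called higher and 5.7% lower, and with normexp and loess on the raw signals the share of higher among called loci was 21.3% instead of 33.5%. For short exposure that share was 90% instead of 73.2%. Members left out, some metallothionein and pathogenesis-related loci were called higher after long exposure. Among these the difference was called for the metallothionein gene Os12g0568200 (1.47 higher after long exposure, limma adjusted p = 0.00106) and the Barwin gene Os11g0592000 (1.18, adjusted p = 0.0214). It was not called for Os12g0570700 (0.75, adjusted p = 0.0702) or Os01g0660200 (1.102, adjusted p = 0.212). Over all 36 tested loci of the pathogenesis-related list, members included, the difference was called higher at 4 and lower at 6.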

How the data were processed

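Root tip RNA was hybridised to 6 two-colour Agilent rice arrays. Per the file headers, the authors' scans were processed with Feature Extraction 10.7.1.1, which gave background-corrected, detrended and dye-normalized processed signal intensity, and the log10 ratio of red (FA) over green (water). The study's methods name another version of this software. The deposited log2 value table equalled the log2 ratio of processed signals within 2.78e-06 on 42416 probes. The raw median intensity deposited for each spot served one alternative only. The files hold no columns of the authors' own comparisons.

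Log10 ratios were turned to log2. Ratios are FA over water in every array. Control spots and spots with an outlier flag were left out of the fits, spots of 1 probe were averaged, and a locus was represented by the probe with the highest mean signal. For members the member probe with the highest mean signal was shown. Only probes whose FA or water intensity reached 100 on 1 or more arrays entered the fit, made with limma 3.58.1 (lmFit and eBayes) in R 4.3.3, per exposure against 0 and for long minus short. Loci were called where the Benjamini-Hochberg adjusted p was below 0.1 and the mean ratio reached 2-fold either way. The script was tested on simulated data. Channel levels were scaled with loess and Aquantile. The number of arrays, 3 per exposure, limits the precision.

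Members and gene lists were chosen with earlier results of these data known. Members named were the 20 with the largest long ratios, those on the lists or in described groups, those in runs of neighbouring loci and those nearest to each limit. Product descriptions came from the study's supplementary tables, which listed 4610 loci and described 4421. In 1 block of them, loci higher after short exposure, 0 of 210 descriptions matched the study's other tables, and that block was not used. Alternatives covered normalization, centring, signal filters, the test, probes, slide, replicate block and left-out replicates. Sequences were not analysed here.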

Additional observations from a re-analysis of the deposited data

Results flagged for a closer look

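The limma test of long minus short compares arrays on different slides. It called 568 loci higher and 1127 lower of 19781 tested, members included. The 5 called loci given here lie outside the member set. They are a selection from the lists and from the neighbours of members, and other loci of the lists were called too. The metallothionein gene Os12g0568200 was higher after long exposure by 1.47 on the log2 scale (adjusted p = 0.00106), the Barwin gene Os11g0592000 by 1.18 (adjusted p = 0.0214) and Os07g0142200, beside a run of members on chromosome 7, by 1.01 (adjusted p = 0.047). In the opposite direction, Os07g0600100, between members on chromosome 7, had a difference of -1.01 (adjusted p = 0.00144) and Os11g0592200, between members on chromosome 11, of -2.57 (adjusted p = 0.0226). Each of the 3 positive differences had all long ratios above all short ratios, and at Os07g0600100 all short ratios were above all long ratios. At Os11g0592200 the short ratios (2.67, 4.82 and 4.42) also lay above the long ratios (2.51, 0.52 and 1.16).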

How the results depend on the processing

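The number of members depended most on the limits: 33 loci had a short mean within 0.25 of zero, 25 had a probe with each short array within 0.5, and 41 had every long array at 1 or more. Raw signals with normexp and loess gave 65 loci, of which 56 were among the 75, and the deposited value table and median centring each gave 75. Leaving out replicate 1, 2 or 3 of both exposures gave 55 to 105 loci, and leaving out short replicate 2 alone, an alternative chosen after seeing the data, gave 90, of which 71 were members.

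Loci called higher after long exposure numbered 353. They numbered 210 with normexp, 539 with no signal filter, 170 with the methods' t-test after Benjamini-Hochberg and 175 with 2-fold on every array, and 282 to 378 with 1 replicate left out. Loci higher after short exposure numbered 1347, with 1235 to 1391 when 1 replicate was left out, and lower 492, against 124 with normexp. For long minus short, 568 loci were higher, 240 with normexp and 518 to 620 with 1 replicate left out. The cause of these changes was not tested, beyond the larger number of loci tested without the filter. The lipid barrier list kept 4 to 6 of 8 loci called higher with 1 replicate left out, metallothioneins 3, the pathogenesis-related list 4 and the photosynthesis locus 1, which became 0 with the median of its probes. Over all results and alternatives, 95 counts of members or of loci called higher stayed within 1.5 times the main count and 9 did not. Counts of loci called lower are not part of that tally.

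With the replicate number as a block, 571 loci were higher and 1142 lower for long minus short. Deviations of same-numbered arrays from their exposure means correlated at -0.18, -0.02 and 0.15 for replicates 1, 2 and 3. Only for replicate 3 was the same-numbered array the best partner. With 3 arrays per exposure on different slides, these values cannot show whether the samples were paired. Slide as a random block gave 573 higher. Slide as a block was not run for either exposure alone, and all 3 long arrays shared a slide. Dim signals limit the ratios of 14 members, which lacked a channel well above background on at least 1 array.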
